A study of Rattus norvegicus and Mus musculus with 14 samples.

Results

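Transcript levels of 5 glycolytic enzyme genes, Adpgk, Gapdh, Pgk1, Pkm and Ldha, and of the creatine transporter gene Slc6a8 were read on a cDNA array in 14 samples. Every probe whose single gene symbol in the platform annotation is one of these names was taken, which gave 7 probes of 6 genes among 1152 probes, of which 384 carry a single symbol (342 genes). Ldha has 2 probes, numbered 591 and 1128 on the array, and each other gene has 1. The genes were grouped by function by a session that already had results of these data, and Adpgk and Ldha had been named there for low values under NMDA in the MEK set. Their differences are therefore given as a description, with the probabilities of the fit over all probes only as context.

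Cortical neurons of embryonic rats gave 12 arrays, in 2 sets, and mouse brain cortex gave 2. In the MEK set, neurons received NMDA with PD98059, an inhibitor of the kinase MEK, or NMDA alone, or the control treatment, labelled CSS. In the NOS set they received NMDA with nitroarginine, an inhibitor of nitric oxide synthase, or NMDA alone, or CSS. Each set held experiments 1 and 2, with 1 array per treatment in each, so every rat group has n = 2 arrays, and no array here carried an inhibitor without NMDA. The mouse samples were cortex of 1 adult nNOS knockout (neuronal nitric oxide synthase) and cortex of 1 adult wild-type littermate, both c57bl. The labels state neither doses, exposure times nor the number of animals, and leave unsaid whether the 2 arrays of a group are separate preparations, so that the spread between them may be technical.

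Glycolysis turns glucose into pyruvate in the cytosol and gives ATP without oxygen. ADPGK phosphorylates glucose with ADP in place of ATP, GAPDH and PGK1 catalyse the middle steps at which NADH and then ATP are made, PKM, pyruvate kinase, makes pyruvate and ATP at the end, and LDHA interconverts pyruvate and lactate. In brain, lactate made by this route can pass between astrocytes and neurons. SLC6A8 imports creatine, which creatine kinase charges to phosphocreatine, a quick store of high-energy phosphate for neurons. NMDA opens a class of glutamate receptor that admits calcium, and restoring ion gradients after such activity costs ATP. Gapdh is also often used as a loading control, which assumes that its level does not change with treatment.

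Values are Z-scores, the distance of a probe from the mean of its own array in SDs over all probes, so differences are in Z units and give no fold change, and levels are compared only within a probe. The column of MEK set control replicate 1 stood 1 row from its probes. As deposited it correlated with the median of the other arrays at r = 0.103 across probes, and moved down by 1 row at 0.823, and the moved column was used throughout. Even so it stood apart, at 0.858 to 0.868 with the other MEK set arrays, which correlated with each other at 0.971 to 0.995. The arrays of NOS experiment 2 stood apart too, at 0.454 to 0.617 with those of NOS experiment 1. Among cell type markers that have a probe, Nefl, Stmn2 and Uchl1 mark neurons, Gfap and Glul astrocytes and Csf1r microglia, and no oligodendrocyte or endothelial marker was measured. The summed score of the 4 neuron probes ran from -0.96 to 1.86 in the MEK set, 0.48 to 1.02 in NOS experiment 1 and -0.54 to 1.38 in NOS experiment 2, and was 0.60 in the knockout and 0.057 in the wild type. That of the 3 astrocyte probes ran from -0.61 to -0.080 in the MEK set, 0.038 to 0.41 in NOS experiment 1 and -0.34 to 0.32 in NOS experiment 2, and was -1.56 in the knockout and -1.65 in the wild type. Csf1r ran from 0.37 to 0.57, from 0.28 to 0.44 and from 0.84 to 1.33 in the same rat groups, and was 0.85 in the knockout and 1.002 in the wild type. The neuron sum was higher under NMDA in all 4 experiments, at 1.64 against -0.96 in MEK experiment 1, 1.86 against 0.67 in MEK experiment 2, 1.02 against 0.48 in NOS experiment 1 and 1.38 against -0.54 in NOS experiment 2. It counts both Uchl1 probes, and its value in MEK experiment 1 rests on the moved column. Singly, Stmn2 was at -0.15 in MEK experiment 2 and Uchl1 probe 557 at -0.005 in NOS experiment 1. All other NMDA differences of the neuron probes were positive. Between the NOS experiments the Uchl1 probes went opposite ways. The controls of experiments 1 and 2 were at 0.93 and -0.51 on probe 557, and at 1.08 and 1.89 on probe 1074. Knockout minus wild type was 0.42 and 0.19 on these probes, -0.065 on Nefl and 0.0022 on Stmn2. The astrocyte sum was lower under NMDA by -0.50 in MEK experiment 1 and higher by 0.12, 0.37 and 0.66 in the others. In MEK experiment 1 the Gfap probes were at -0.48 and 0.22 and Glul at -0.24. In MEK experiment 2 the Gfap probes were at -0.019 and -0.053 and Glul at 0.20. In NOS experiments 1 and 2 Glul was at -0.0041 and -0.058, while both Gfap probes were higher. The astrocyte sum thus mixed directions in every experiment. The part of these markers in the NMDA results was not tested. A Z-score does not show whether a transcript is present, and in bulk samples fewer cells of a type and less RNA per cell cannot be told apart. No probe used here carries the symbol Nos1, so the deletion was not checked.

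In the MEK set, the NMDA arrays lay below both controls on 3 probes, those of Adpgk, Ldha (probe 591) and Slc6a8, a pattern that 20% of all probes showed, and above both on 0 (24.4% of all probes). The promoters of these genes are shown because a probe of each has that pattern. Each runs from 250 bases before to 50 bases after the annotated start in RefSeq on the rat build GRCr8 (Ldha chr1:106507842-106508141, plus strand; Adpgk chr8:68595022-68595321, plus strand; Slc6a8 chrX:156535767-156536066, plus strand). Capitals mark ACGTG, the core of the hypoxia response element through which HIF1 acts on glycolytic genes, and TGACG, the core of the cAMP response element bound by CREB, a factor activated downstream of calcium and ERK. Both were searched on both strands.
Ldha: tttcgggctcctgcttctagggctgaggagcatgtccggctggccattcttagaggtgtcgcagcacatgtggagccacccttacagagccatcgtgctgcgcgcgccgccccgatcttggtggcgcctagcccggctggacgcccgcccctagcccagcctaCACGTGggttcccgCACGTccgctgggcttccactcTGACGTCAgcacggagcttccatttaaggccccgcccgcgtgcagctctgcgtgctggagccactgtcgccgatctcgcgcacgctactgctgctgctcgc
Adpgk: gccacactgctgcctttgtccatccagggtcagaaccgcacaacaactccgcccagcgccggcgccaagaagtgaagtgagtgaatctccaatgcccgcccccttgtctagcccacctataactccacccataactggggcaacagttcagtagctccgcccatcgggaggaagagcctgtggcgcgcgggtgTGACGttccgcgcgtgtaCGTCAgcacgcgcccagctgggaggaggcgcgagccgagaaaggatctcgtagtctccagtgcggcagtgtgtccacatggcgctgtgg
Slc6a8: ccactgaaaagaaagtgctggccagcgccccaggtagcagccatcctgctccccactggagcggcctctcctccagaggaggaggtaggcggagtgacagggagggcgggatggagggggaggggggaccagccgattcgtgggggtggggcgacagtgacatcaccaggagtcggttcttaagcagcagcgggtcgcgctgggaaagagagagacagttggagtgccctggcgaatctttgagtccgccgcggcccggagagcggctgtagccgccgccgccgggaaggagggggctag

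The Ldha promoter holds ACGTG at 3 places, 2 of which are the overlapping strands of the palindrome CACGTG, and the whole cAMP element TGACGTCA at 1 place. The Adpgk promoter holds TGACG at 2 places and ACGTG at 0, and the Slc6a8 promoter holds neither. Gapdh has each motif at 1 place and Pkm has neither, and the table has no entry for Pgk1. Among 33469 rat promoters of the same length, 19.3% hold ACGTG, 21.2% TGACG and 1.83% TGACGTCA. Neither motif was found in all 3 promoters, which says nothing of whether either factor binds them, and only 1 of the Ldha probes showed the pattern.

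**Figure D1:**
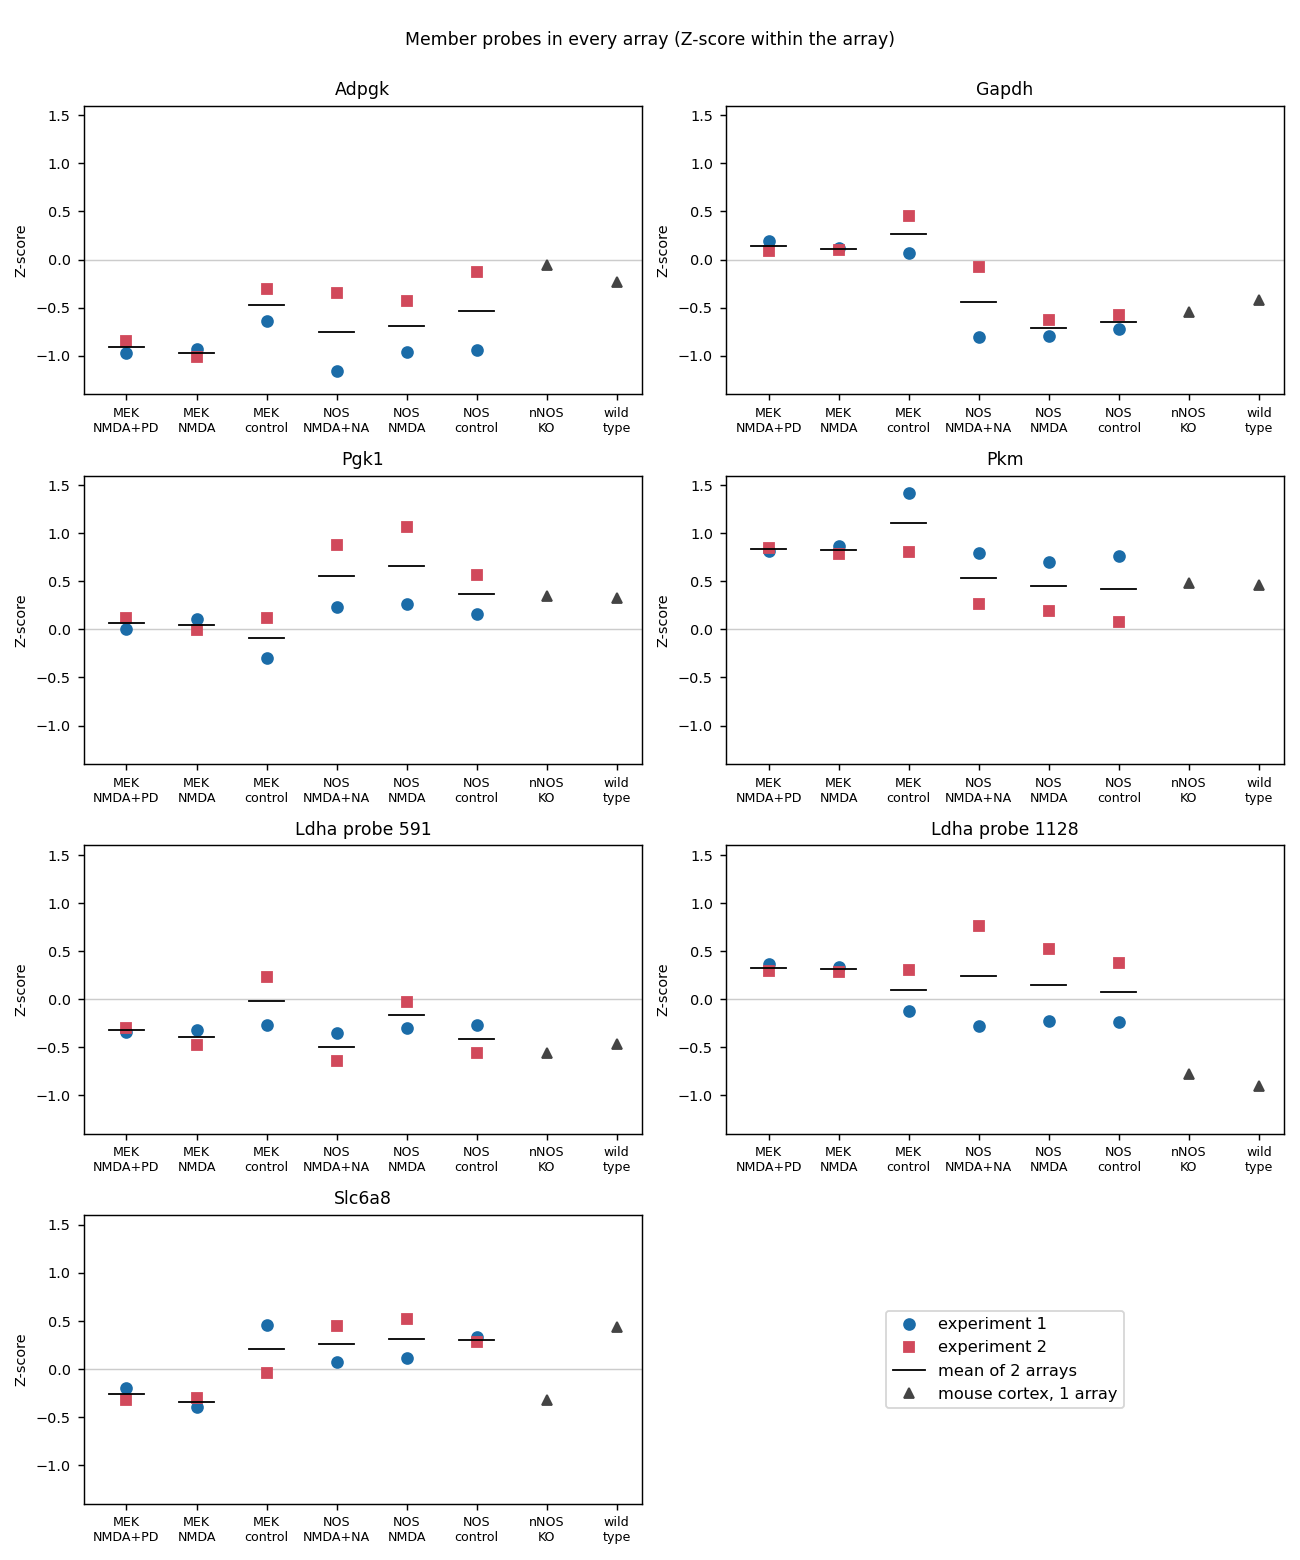
Z-score of each of the 7 probes in every array, by treatment (PD, PD98059; NA, nitroarginine; KO, knockout), with circles for experiment 1, squares for experiment 2, a line for the mean of the 2 arrays and triangles for the single mouse arrays. In the MEK set the Adpgk, Ldha probe 591 and Slc6a8 points of all 4 NMDA-treated arrays lie below both controls, Gapdh is higher in all MEK set arrays than in any NOS set array, and Slc6a8 is at -0.32 in the knockout and 0.44 in the wild type.

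NMDA was compared with control within each set to ask what receptor stimulation did to these transcripts. Adpgk, the ADP-dependent glucokinase, had Z-scores of -0.93 and -1.01 in the NMDA arrays of MEK experiments 1 and 2, against -0.64 and -0.30 in the controls. In the NOS set it had -0.96 and -0.43 under NMDA, against -0.94 and -0.12 in the controls of experiments 1 and 2. It was the lone member lower under NMDA in all 4 experiments, by -0.29, -0.71, -0.013 and -0.31 Z units, and 4.6% of all probes were lower in all 4. The first difference rests on the moved column, where the control value of Adpgk was -0.64, against -1.21 as deposited. The summed neuron markers were higher in all 4, and their part in the Adpgk values was not tested. No member was higher in all 4, as 10.2% of all probes were. The groups did not overlap in the MEK set and overlapped in the NOS set, where the 2 experiments lay farther apart than the treatments. In NOS experiment 1 the difference was close to 0.

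Ldha, the lactate dehydrogenase A subunit, gave unlike pictures on its probes. Probe 591 had -0.32 and -0.47 in the NMDA arrays of the MEK set, against -0.27 and 0.23 in the controls, and -0.29 and -0.029 in the NMDA arrays of the NOS set, against -0.26 and -0.56 in the controls. Its NMDA difference was thus -0.050, -0.71 and -0.031 in the first 3 experiments and 0.53 in NOS experiment 2. Probe 1128 had 0.34 and 0.29 under NMDA in the MEK set, against -0.12 and 0.31 in the controls. In the NOS set it had -0.22 and 0.52 under NMDA, against -0.23 and 0.38 in the controls. In MEK experiment 2, where probe 591 was farthest below its control, probe 1128 was only 0.020 below it. Over the 12 rat arrays, with the mean of each experiment subtracted, the probes correlated at r = -0.127, which is a description over arrays that share experiments. A direction for Ldha as a gene is therefore not given.

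**Figure D2:**
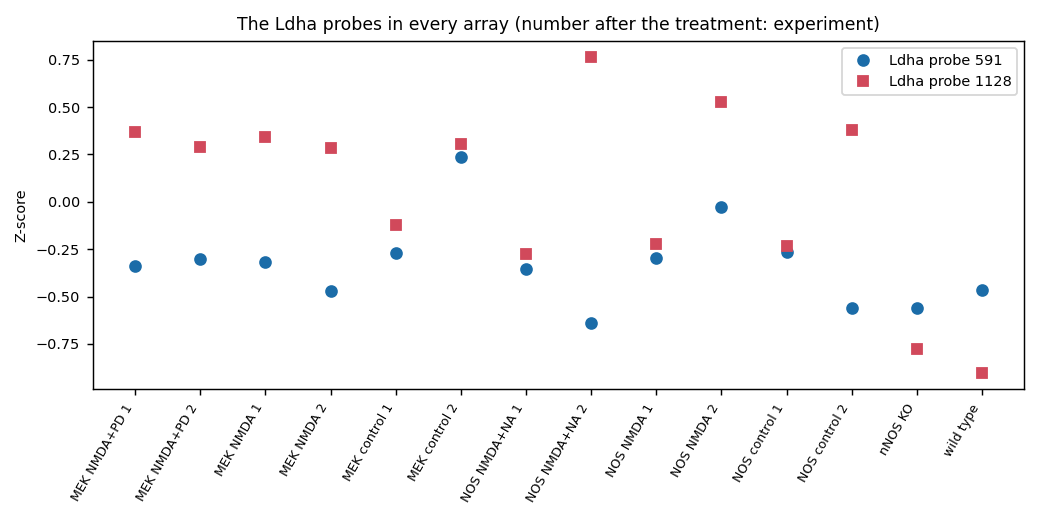
Z-score of Ldha probe 591 (circles) and probe 1128 (squares) in each of the 14 arrays, with the experiment number after the treatment. Probe 591 is highest in MEK control 2, at 0.23, while probe 1128 stays between -0.12 and 0.37 in the MEK set and is at -0.78 and -0.90 in the knockout and wild-type cortex, below every rat array.

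Slc6a8, the creatine transporter, had -0.39 and -0.30 under NMDA in the MEK set, against 0.46 and -0.039 in the controls. The groups did not overlap, but the size of the difference was -0.85 Z units in experiment 1, which uses the moved column, and -0.26 in experiment 2. In the NOS set it had 0.11 and 0.52 under NMDA, against 0.33 and 0.28 in the controls. It was thus lower by -0.22 in NOS experiment 1 and higher by 0.24 in NOS experiment 2. In NOS experiment 1, 2.95% of all probes were as low or lower, and 9.72% were at least as far from 0 in either direction. Non-overlap with NMDA below control in the MEK set was thus seen in 3 of the 7 probes, and as that contrast had been used in naming Adpgk and Ldha, nothing is read from the count. In the NOS set 0 of 7 were without overlap in either direction, against 5.73% of all probes above and 4.6% below. With all 4 NMDA-treated arrays of that set against both controls it was also 0 of 7, against 1.91% of all probes above and 1.65% below.

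For the middle and end of glycolysis, the NMDA arrays overlapped the controls or lay beside them. Gapdh had 0.12 and 0.096 under NMDA in the MEK set, against 0.070 and 0.45 in the controls, and -0.80 and -0.62 under NMDA in the NOS set, against -0.72 and -0.58 in the controls. Its differences of 0.050, -0.36, -0.077 and -0.043 Z units were negative in 3 of the 4 experiments. Pgk1 had 0.11 and -0.010 under NMDA in the MEK set, against -0.30 and 0.12 in the controls. In the NOS set Pgk1 had 0.27 and 1.06 under NMDA, against 0.16 and 0.57 in the controls, which made it higher in both experiments by 0.10 and 0.49, as were 26.4% of all probes. Pkm had 0.87 and 0.78 under NMDA in the MEK set, against 1.42 and 0.80 in the controls, and 0.70 and 0.19 under NMDA in the NOS set, against 0.77 and 0.075 in the controls. All differences in MEK experiment 1 rest on the moved column, among them -0.55 for Pkm, which was at -0.019 in MEK experiment 2.

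Taken by experiment, 4 of the 7 probes were lower under NMDA in MEK experiment 1 (median -0.050 Z units, all probes -0.020), 7 of 7 in MEK experiment 2 (median -0.26, all probes 0.040), 5 of 7 in NOS experiment 1 (median -0.031, all probes -0.010) and 2 of 7 in NOS experiment 2 (median 0.14, all probes 0.078). Of all probes, 51.3%, 43.1%, 54.0% and 43.4% were lower in these experiments, in that order. Both MEK experiments agreed in being lower for Adpgk, Pkm, Ldha probe 591 and Slc6a8 (24.4% of all probes) and in being higher for 0 members (29.3%). Both NOS experiments agreed in being lower for Adpgk and Gapdh (23.8%) and higher for Pgk1 and Ldha probe 1128 (26.4%). The 7 probes were thus lower together only in MEK experiment 2, where all differences share 1 pair of arrays. Of these, Pkm at -0.019 and Ldha probe 1128 at -0.020 were barely lower. In MEK experiment 2, Adpgk at -0.71 and Ldha probe 591 at -0.71 lay among the lowest 1.56% and 1.48% of all probes, and Gapdh at -0.36 among the lowest 8.33%. As the MEK set contrast had been used in naming Adpgk and Ldha, nothing is read from the MEK set counts or from these ranks. The SD of the difference over all probes was 0.515, 0.241, 0.134 and 0.444 Z units in the 4 experiments, so a given size means less in MEK experiment 1 and NOS experiment 2.

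**Figure D3:**
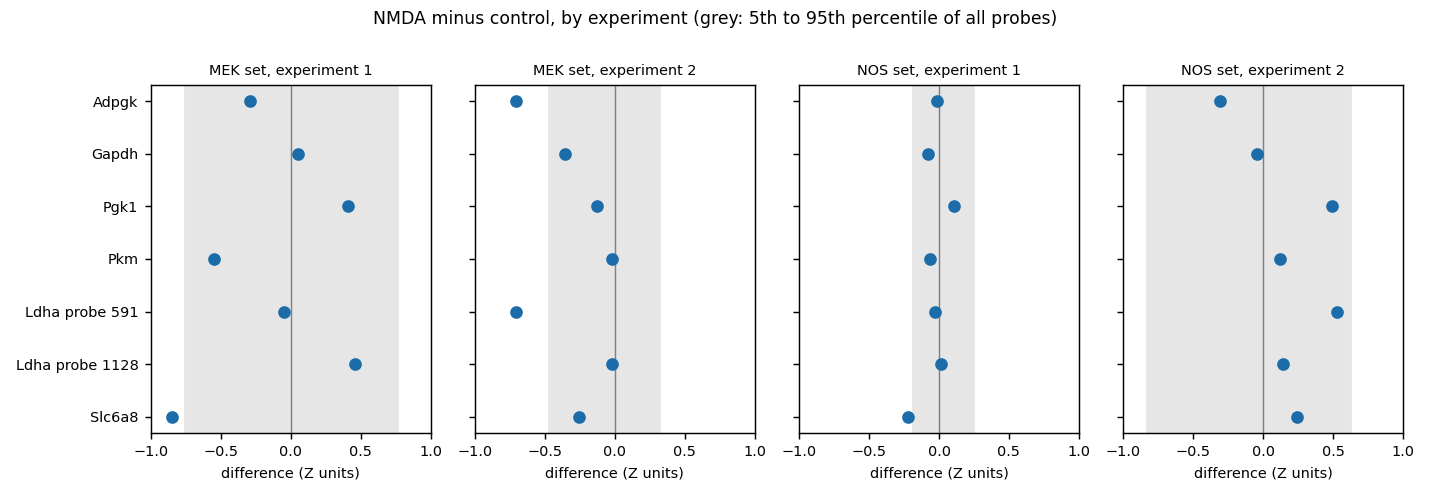
NMDA minus control in Z units for the 7 probes, 1 panel per experiment, with the range from the 5th to the 95th percentile of all probes in grey. Adpgk and Ldha probe 591 lie left of the grey range in MEK experiment 2 at -0.71 each, Slc6a8 does so in MEK experiment 1 at -0.85 and in NOS experiment 1 at -0.22, and no point is outside it in NOS experiment 2.

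In limma over all 1152 probes, 12 rat arrays and 6 group means, no comparison of NMDA with control called any probe at an adjusted p of 0.05 (0 probes, 0%), nor therefore any member. At an unadjusted p under 0.05 there were 16 probes in the MEK set, 2 in the NOS set and 11 over both sets. In the MEK set the fitted differences were -0.55 for Slc6a8 (SE 0.26), -0.50 for Adpgk (SE 0.36) and -0.38 for Ldha probe 591 (SE 0.26), with an adjusted p of 0.998 for each. With a replicate block, which pairs the arrays of an experiment, these differences were the same and their SEs 0.18, 0.16 and 0.20. The adjusted p was then 0.298, 0.285 and 0.419 (limma), so none was called. Over both sets Adpgk was at -0.33 (SE 0.26), Slc6a8 at -0.27 (SE 0.18) and Pgk1 at 0.22 (SE 0.24). With the replicate block these SEs were 0.11, 0.13 and 0.12, and the adjusted p was 0.384, 0.472 and 0.509 (limma). After subtraction of a running median over the probe order, Adpgk was at 0.0125 over both sets and 0.0053 in the MEK set, so its direction was lost. Without MEK set control replicate 1, Slc6a8 over both sets was at -0.15 and Pgk1 at 0.12. The NMDA effect in the NOS set minus that in the MEK set was 0.63 for Ldha probe 591 (SE 0.36) and 0.56 for Slc6a8 (SE 0.37), also not called (limma, 0 probes, 4 at an unadjusted p under 0.05, adjusted p = 0.999). For Slc6a8 it was 0.31 without MEK set control replicate 1, 0.34 without NOS experiment 2 and 0.086 without both. For Ldha probe 591 it was 0.88, 0.35 and 0.60 in the same order. With MEK set control replicate 1 and NOS experiment 2 both left out, limma called 82 probes in the MEK set (7.12%), among them Adpgk at -0.67 (SE 0.084, adjusted p = 0.019) and Ldha probe 591 at -0.63 (SE 0.087, adjusted p = 0.0195). Gapdh was then at -0.35 (adjusted p = 0.052) and Slc6a8 at -0.30 (adjusted p = 0.0913). That fit rests on a lone MEK set control array, whose spread is borrowed from the remaining groups. With MEK set control replicate 2 left out in place of replicate 1, limma called 653 probes in the MEK set (56.7%), 421 over both sets (36.6%) and 394 for the difference between sets (34.2%). In that fit Adpgk was called at -0.33 (adjusted p = 0.0188), Slc6a8 at -0.80 (adjusted p = 0.00133) and Pkm at -0.59 (adjusted p = 0.00186), all lower in the MEK set under NMDA. Pgk1 at 0.35 and Ldha probe 1128 at 0.43 were called as higher, and Ldha probe 591 at -0.13 (adjusted p = 0.261) and Gapdh at 0.038 were not called. Which members passed thus differed with the control array that was kept. Both fits set the same NMDA arrays of the MEK set against a lone control. That contrast had also been used in naming Adpgk and Ldha, so nothing is read from which members passed.

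PD98059 given with NMDA was set against NMDA alone to see whether blocking MEK altered the stimulated level. On the 7 probes the inhibitor and NMDA arrays differed by -0.11 to 0.19 Z units over both experiments. The SD of this difference over all probes was 0.155 in experiment 1 and 0.104 in experiment 2. Slc6a8 at 0.19 in experiment 1 lay at percentile 95.5 of all probes. In experiment 2 Adpgk at 0.16 lay at percentile 95.1 and Ldha probe 591 at 0.17 at percentile 95.8. In the respective other experiment these 3 probes were at -0.028, -0.040 and -0.020. Adpgk had -0.97 and -0.85 with PD98059, against -0.93 and -1.01 under NMDA alone, and Slc6a8 had -0.20 and -0.32, against -0.39 and -0.30. Ldha probe 591 had -0.34 and -0.30 with PD98059, against -0.32 and -0.47 under NMDA alone. On these 3 probes the values with PD98059 also stayed below both MEK set controls, a pattern in which all 4 NMDA-treated arrays are below both controls that 15.7% of all probes showed (all 4 above both, 20.2% and 0 members). Groups with and without the inhibitor overlapped on every member, while 14.3% of all probes were without overlap above and 8.94% below.

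Gapdh had 0.19 and 0.090 with PD98059, against 0.12 and 0.096 under NMDA alone, and Pgk1 had 0.000 and 0.12, against 0.11 and -0.010. Pkm had 0.82 and 0.85 with PD98059, against 0.87 and 0.78 under NMDA alone, and Ldha probe 1128 had 0.37 and 0.29, against 0.34 and 0.29. Ldha probe 1128 was the 1 member above NMDA alone in both experiments (24.4% of all probes), and 0 members were below it in both (12.5%). By limma 0 probes were called (0%), and 0 had an unadjusted p under 0.05. The fitted differences of the 7 probes ran from 0.0079 for Pkm to 0.081 for Slc6a8, with 95% intervals from -0.51 to 0.67 for Slc6a8 and from -0.76 to 0.88 for Adpgk. With the replicate block, which pairs the arrays of an experiment, the intervals were from -0.33 to 0.49 for Slc6a8 and from -0.29 to 0.41 for Adpgk. Neither shows that the inhibitor left these transcripts as they were.

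Nitroarginine given with NMDA was set against NMDA alone in the NOS set to ask what blocking nitric oxide synthase did. Ldha probe 591 was the lone member whose groups did not overlap, with -0.35 and -0.64 under nitroarginine, against -0.29 and -0.029 under NMDA alone, a pattern of 5.56% of all probes in that direction and of 3.56% in the other. The difference was -0.060 Z units in experiment 1 and -0.61 in experiment 2. Against the control of the same experiment, nitroarginine with NMDA was at -0.091 and -0.079. The -0.61 thus rests on the NMDA array of experiment 2, which also gave the NMDA difference of 0.53. Ldha probe 1128 did not share it, with -0.27 and 0.77 under nitroarginine, against -0.22 and 0.52 under NMDA alone. Gapdh had -0.80 and -0.081 under nitroarginine, against -0.80 and -0.62 under NMDA alone, so that it was level in experiment 1 and higher by 0.54 in experiment 2.

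For the other members these arrays differed less than the experiments did. Adpgk had -1.16 and -0.35 under nitroarginine, against -0.96 and -0.43 under NMDA alone, and Slc6a8 had 0.078 and 0.44, against 0.11 and 0.52. Pgk1 had 0.24 and 0.88 under nitroarginine, against 0.27 and 1.06 under NMDA alone, and Pkm had 0.79 and 0.27, against 0.70 and 0.19. In both experiments Pkm was higher (29.5% of all probes), and Pgk1, Ldha probe 591 and Slc6a8 were lower (31.4%). By limma 0 probes were called (0%), and 1 had an unadjusted p under 0.05. Fitted values were -0.33 for Ldha probe 591 (SE 0.26) and 0.27 for Gapdh (SE 0.28), with an adjusted p of 0.998 for both.

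**Figure D4:**
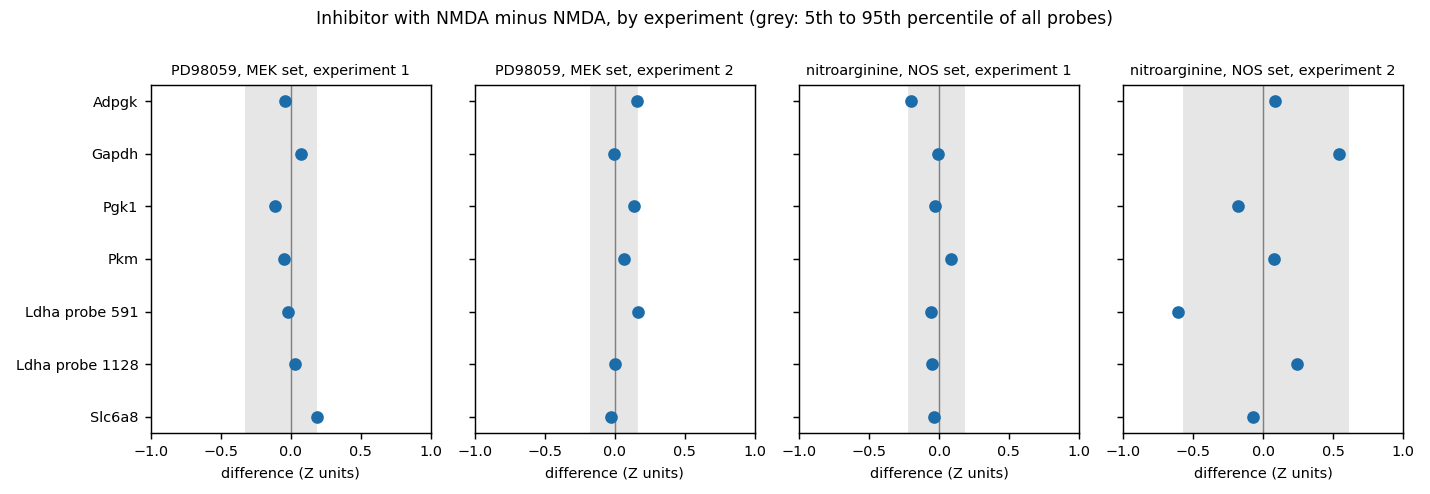
Inhibitor with NMDA minus NMDA alone in Z units for the 7 probes, PD98059 in the MEK set and nitroarginine in the NOS set, 1 panel per experiment, with the range from the 5th to the 95th percentile of all probes in grey. The PD98059 points lie between -0.11 and 0.19, with Slc6a8 at 0.19 in experiment 1 and Adpgk at 0.16 and Ldha probe 591 at 0.17 in experiment 2 at or past the edge of the grey range. Ldha probe 591 at -0.61 lies outside it in NOS experiment 2.

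Levels of some members separated the sets whatever the treatment. Gapdh ranged from 0.070 to 0.45 over the 6 MEK set arrays and from -0.80 to -0.081 over the 6 NOS set arrays, without overlap, as did 11.9% of all probes in that direction. Pgk1 ranged from -0.30 to 0.12 in the MEK set and from 0.16 to 1.06 in the NOS set, without overlap, as did 14.9% of all probes in that direction. Without MEK set control replicate 1, Slc6a8 also separated, at -0.39 to -0.039 in the remaining MEK set arrays and 0.078 to 0.52 in the NOS set (23.9% of all probes for Pgk1 and Slc6a8, 14.2% for Gapdh). The sets differ in everything that was done apart, so array processing and the neurons themselves cannot be told apart here. Gapdh, a common loading control, therefore stood at a different place among the probes in each set.

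Within the NOS set, NOS experiment 2 was wholly above experiment 1 on Adpgk (-0.43 to -0.12 against -1.16 to -0.94), Gapdh, Pgk1 (0.57 to 1.06 against 0.16 to 0.27) and Ldha probe 1128 (0.38 to 0.77 against -0.27 to -0.22), as on 47% of all probes. It was wholly below it on Pkm, at 0.075 to 0.27 against 0.70 to 0.79, as on 28.6% of all probes. Experiment accounted for 95.5% of the variance of Pkm over the 6 arrays, 92.6% for Ldha probe 1128, 90.7% for Adpgk, 81.2% for Pgk1, 56.5% for Slc6a8, 49.0% for Gapdh and 6.88% for Ldha probe 591. In the MEK set treatment accounted for 81.6% of the variance of Adpgk and 72.4% of that of Slc6a8, and for 22.2% to 53.5% of that of the other probes, with the moved column as 1 of the 6 arrays. With so few arrays a share falls to treatment or experiment without any effect, and the shares over all probes were not computed. The MEK set contrast had also been used in naming Adpgk and Ldha, so nothing is read from the MEK set shares.

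The nNOS knockout was compared with the wild type to ask what loss of the enzyme did in adult cortex, with 1 array each and therefore no test. Slc6a8 had a Z-score of -0.32 in the knockout, against 0.44 in the wild type. Its difference of -0.76 Z units lay at the 0.260th percentile of all probes, where the SD of the difference was 0.199, and 0.260% of probes differed by as much in either direction. Only 1.56% of probes were lower in the knockout by at least 0.5 Z units, and Slc6a8 was the 1 member among them, while 0 members and 0.781% of probes were higher by as much. The arrays correlated at 0.980 across probes. The difference kept its direction under quantile normalization, median centring and removal of a trend along the probe order (-0.77 to -0.64).

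The glycolytic enzymes differed far less between genotypes. Adpgk had -0.058 in the knockout, against -0.23 in the wild type, and Gapdh had -0.54, against -0.42. Pgk1 had 0.35 in the knockout, against 0.32 in the wild type, and Pkm had 0.48, against 0.46. Ldha had -0.56 in the knockout, against -0.46 in the wild type, on probe 591 and -0.78, against -0.90, on probe 1128, so its probes differed in direction, except that after subtraction of a running median over the probe order probe 1128 was at -0.27 and Gapdh at 0.17. These 6 differences, from -0.12 to 0.17 Z units, were within the SD over all probes.

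**Figure D5:**
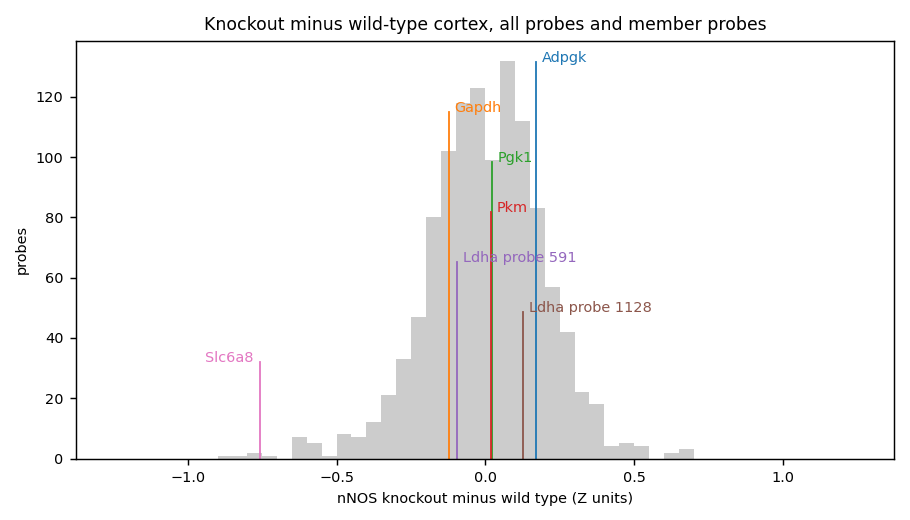
Number of probes by nNOS knockout minus wild type in Z units (1 array each, all 1152 probes in grey), with a line at each member probe, whose height has no meaning. Slc6a8 lies in the left tail at -0.76 and the other 6 probes lie between -0.12 and 0.17.

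Set beside the rat neurons, mouse cortex gave lower values of Ldha on probe 1128, at -0.78 and -0.90 against -0.27 to 0.77 over the 12 rat arrays, as did 6.08% of all probes, and 0 members were above every rat array (6.78%). On probe 591 the cortex values of -0.56 and -0.46 fell inside the rat range of -0.64 to 0.23. Cortex values of the other 5 members overlapped the rat range, or lay inside it for Gapdh, Pgk1, Pkm and Slc6a8. Species, age, tissue and culture differ together, and mouse RNA was read on the probes named here for rat genes, so no cause can be assigned.

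Of 73 genes listed for glucose, lactate, glycogen and creatine handling and their regulators, 9 had a probe, and 3 of these are no members. Ckb is the brain creatine kinase that works with the creatine imported by SLC6A8. On 1 probe it was higher under NMDA in all 4 experiments (0.18, 0.089, 0.0026 and 0.25 Z units), as were 10.2% of all probes. The other Ckb probe was at -0.39, 0.057, -0.11 and -0.46. Bsg, basigin, a chaperone of lactate transporters, was at 0.61, 0.12, 0.032 and -0.070. Gbe1, the glycogen branching enzyme, was at -0.080, 0.23, -0.21 and 0.24. For each of these probes the first value rests on the moved column. In the knockout Ckb was higher than in the wild type by 0.21 on 1 probe and 0.061 on the other, Bsg was higher by 0.16 and Gbe1 lower by -0.17. Of these 4 probes, 0 were called in any of the 6 comparisons (limma).

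The named probes most like each member were taken as the 3 with the highest Pearson r over the 12 rat arrays after the mean of each experiment was subtracted. For Slc6a8 they were Sf3a3 (r = 0.985), Vps54 (0.975) and Cisd2 (0.974), and these stood at 0.908 to 0.946 without MEK set control replicate 1. Adpgk was most like 2 probes of Akt1s1 (0.879 and 0.823) and Vars (0.857), and Ldha probe 591 most like Gabrp (0.916), Stx7 (0.871) and Angptl4 (0.837). Ldha probe 1128 had Sub1 (0.964), Grk6 (0.938) and Atp5mc1 (0.933). Pgk1 had COX3 (0.958), Cand1 (0.955) and Spnb2 (0.934), and Gapdh had Slc25a16 (0.877), Smpd3 (0.823) and Rab7a (0.803). Pkm had Map7d1 (0.937), Map2k2 (0.929) and Gabra2 (0.926), of which Map7d1 was at 0.468 and Map2k2 at 0.452 without MEK set control replicate 1. Without NOS experiment 2, Angptl4 was at 0.684 and Stx7 at 0.756 with Ldha probe 591, and without MEK set control replicate 1, Atp5mc1 was at 0.808 and Grk6 at 0.818 with Ldha probe 1128. No member was among the 3 nearest of another member. Without the subtraction of experiment means, Pkm kept 1 of its 3 nearest probes, Gabra2, and every other member probe kept 0. The arrays share experiments and a per-array scaling, so these values only describe the series.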

How the data were processed

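cDNA array values of 12 rat neuron and 2 mouse cortex samples were used, grouped by treatment, set and experiment from the labels. The deposited values are scores: column means lie at 0 and SDs between 0.857 and 0.999, the form of Z-scores made within each array. The authors' background correction, scaling and any filter are not given in the sources used here, and direction was taken as that of brightness. Gene symbols came from the platform annotation of 2007. All 7 member probes matched RefSeq by gene ID, and 762 of 1152 probes have no symbol here.

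Values of the rat arrays went into limma 3.58.1 under R 4.3.3 (6 group means, two-sided, Benjamini-Hochberg over all probes, threshold 0.05), with MEK set control replicate 1 moved down by 1 row, which leaves 1 probe without a value there. The fit was tested on simulated data. The probes had no filter on low values. Figures and descriptions used Python 3.11.15, pandas 2.3.3 and matplotlib 3.10.9. Members and gene lists were chosen with earlier results of these data known. Named genes were all member probes, all listed pathway genes with a probe, and the 3 most similar named probes of each member.

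The labels' experiment numbers pair the arrays. Deviations of same-numbered arrays from their group means had r between 0.874 and 0.930 in the NOS set, and between -0.145 and 0.073 in the MEK set. Alternatives included experiment as a block, the column as deposited, other scalings, and each array left out.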

Additional observations from a re-analysis of the deposited data

How the results depend on the processing

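Counts of called probes stayed at 0 in all 6 comparisons (limma) when the misaligned column was used as deposited, and under quantile normalization, median centring, removal of a running median over 25 probes, a variance trend with robust moderation, restriction to probes above the median probe, and NOS experiment 2 left out. With the replicate block, which pairs arrays of an experiment, the counts were also 0, with 166 probes at an unadjusted p under 0.05 in the MEK set and 57 in the NOS set for NMDA against control. The block changed no call. Leaving out each array in turn gave 0 to 1 probe for NMDA against control in the MEK set, over both sets and for the difference between sets; the 1 came without MEK set control replicate 2. With MEK set control replicate 1 and NOS experiment 2 both left out, a setting chosen after seeing the data, 82 probes were called in the MEK set under NMDA, 75 of them lower. With MEK set control replicate 2 and NOS experiment 2 left out, also added after seeing the data, 653 were called in the MEK set, 421 over both sets and 394 for the difference between sets. Both settings leave 2 residual degrees of freedom and a lone MEK set control. Of 42 member values in the fits, 8 kept their sign in every alternative, among them Slc6a8 (-0.80 to -0.27) and Ldha probe 591 (-0.66 to -0.13) for NMDA in the MEK set, and 12 passed 0.05 in any, all in one or both of these added settings. Adpgk there ran from -0.67 to 0.0053, where the highest value came with the running median removed and -0.21 with the column as deposited. Precision is limited by 2 arrays per group and 1 per genotype.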
